A study of Bos taurus with 15 samples.

Results

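Endometrium, the lining of the uterus, was compared between 10 beef heifers of lower fertility and 5 High-fertile heifers (Bos taurus), 15 libraries in all and the whole of the series. The lower arm joined the 5 libraries labelled Sub-fertile and the 5 labelled Infertile, as their fertility class gives them, and the genes described are those that stood on the same side of High-fertile in both classes. All 15 heifers were at day 14 of pregnancy, had their cycles synchronised with prostaglandin, GnRH, a progesterone insert and estradiol, and received an embryo made in vivo on day 7. The tissue was a forceps biopsy taken after the uterus had been flushed, so each library is a mixture of cell types from 1 heifer. Neither the way in which fertility was classed nor what each flush recovered is given in the sources used here, and the class of a heifer is known only from its label.

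At this stage the uterus is under progesterone from the corpus luteum, and the conceptus depends on what the endometrial epithelium and glands secrete and transport. The conceptus elongates and secretes interferon tau, which blocks the return to estrus and induces interferon-stimulated genes in the endometrium. Blood vessels, resident immune cells and ciliated cells of the surface epithelium are further parts of the same tissue, and their transcripts enter a biopsy in proportion to their share of its RNA.

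The epithelial markers EPCAM, CDH1, KRT8 and KRT18, the gland marker FOXA2, the stromal markers COL1A1, COL3A1, DCN and VIM and the uterine HOXA10 and HOXA11 were present in every library, as the labelled tissue requires. The trophoblast genes PAG11 and PRP1 were at 0 in all 15 libraries, and PAG2 was at 0 in 10, with 13 counts in total. IFNT2, an interferon tau gene, had counts in every library, 570 in total. The smooth muscle myosin MYH11 ran from 90.6 to 5949 CPM (counts scaled to a common library size), and its level differed widely within both arms. Whether the amount of muscle in the biopsies differed was not tested. Total counts were 38017136 to 62858724 per library. The libraries were clustered on their levels of entries whose description holds the words pseudogene, ribosomal RNA or rRNA. The tree was cut into 3 sets, a number given to the clustering and not found by it. Such entries are sensitive to the placement of reads that map to several loci. High-fertile replicate 1 and Infertile replicate 2 stood apart, with 1.13% and 1.26% of their counts in such entries against 2.44% to 3.32% in the other 13 libraries. A set of 5 was made up of 3 Sub-fertile libraries (replicates 1, 2 and 5) with Infertile replicates 3 and 5, and had no High-fertile library. In the remaining set of 8 there were 4 High-fertile libraries, 2 Sub-fertile ones and 2 Infertile ones. Class and library set are therefore partly confounded, and values with the set as a covariate, or within the set of 8, are given beside many of the results below. By percent of counts in such entries the set of 5, at 2.89% to 3.11%, lay within the set of 8, at 2.44% to 3.32%. The labels name no batch, and the sets were drawn from levels in these same libraries. Whether they reflect library handling or the state of the tissue was not tested. Values with the covariate are therefore not a batch correction.

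Of 19962 genes tested, 0 (0%) passed an adjusted p of 0.05 in the comparison of the pooled lower classes with High-fertile by edgeR's quasi-likelihood test, where the smallest adjusted p was 0.251. At an unadjusted p under 0.05 there were 3612 genes (18.1%), 1965 (9.84%) higher and 1647 (8.25%) lower in the lower classes. Without High-fertile replicate 5 the number at an unadjusted p under 0.05 was 2314. DESeq2 passed 124 genes (0.623%), 80 higher and 44 lower, the edgeR likelihood ratio test 14 (0.0701%) and limma-voom 0 (0%). limma-voom with a weight for each library passed 7288 (36.5%). The number of calls thus depended on the tool, and the values below describe levels and differences that did not pass the adjusted threshold in the quasi-likelihood test.

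Genes shared by both lower classes were defined from a fit with 1 mean per class as those at an unadjusted p under 0.05 in both classes and in the same direction. There were 979 (4.9%), of which 578 (2.9%) were higher and 401 (2.01%) lower in both. Both comparisons use the same 5 High-fertile libraries, so a High-fertile library that lies far out enters both, and the number is a description with no test. The shared number was 525 without High-fertile replicate 5 and 630 without High-fertile replicate 3. Of the lower-class libraries, leaving out Infertile replicate 3, Infertile replicate 5 or Sub-fertile replicate 5 gave 491, 515 or 563, and leaving out Sub-fertile replicate 4, Infertile replicate 1 or Infertile replicate 2 gave 1506, 1551 or 1836. With both libraries of the set of 2 left out, 3921 of 20155 genes (19.5%) were at an unadjusted p under 0.05, 0 passed the adjusted threshold, and 1255 were shared, 648 of them among the 979.

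Differences are log2 fold changes, lower classes minus High-fertile. The genes higher in both classes had a median log2 fold change of 0.50 in the pooled fit, and those lower in both had -0.53, against 0.03 over all genes tested. Among the higher genes 279 (48.3%) also differed between the set of 5 and the set of 8 libraries at an adjusted p under 0.05, and among the lower genes 238 (59.4%) did, against 6470 (32.4%) of all genes. All 279 were higher and all 238 lower in the set of 5, which holds no High-fertile library. With the set as a covariate the medians were 0.27 and -0.30. In the pooled fit with the covariate 267 of the 578 genes and 261 of the 401 were at an unadjusted p under 0.05. Of all genes 1235 (6.19%) were. The shared rule instead asks for such a p in each lower class. By that rule 171 of the shared genes stayed shared with the covariate, and 63 did within the set of 8. The shared genes were chosen on the same libraries, so these counts are no independent check. Entries with only a LOC number made up 22.8% of the shared higher and 5.49% of the shared lower genes, against 23.2% of all genes tested.

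A stricter description asks that all 10 lower-class libraries lie on one side of all 5 High-fertile libraries. This held for 84 genes (0.421%), 34 (0.17%) higher and 50 (0.25%) lower in the lower classes, and 30 of the 34 and 40 of the 50 were also shared by the rule above. The 12 higher and the 12 lower genes with the smallest p in the pooled fit are described first. Each had an adjusted p of 0.251 and all 24 were shared by both classes. In 8 of them the arms did not overlap. All 24 had the same sign with the library set as a covariate and within the set of 8, with an unadjusted p under 0.05 for 24 and for 22 of them. Within the set of 8, 1477 of 20577 genes (7.18%) were at such a p. These genes were ranked on the same libraries, so those counts are no independent check.

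**Figure D1:**
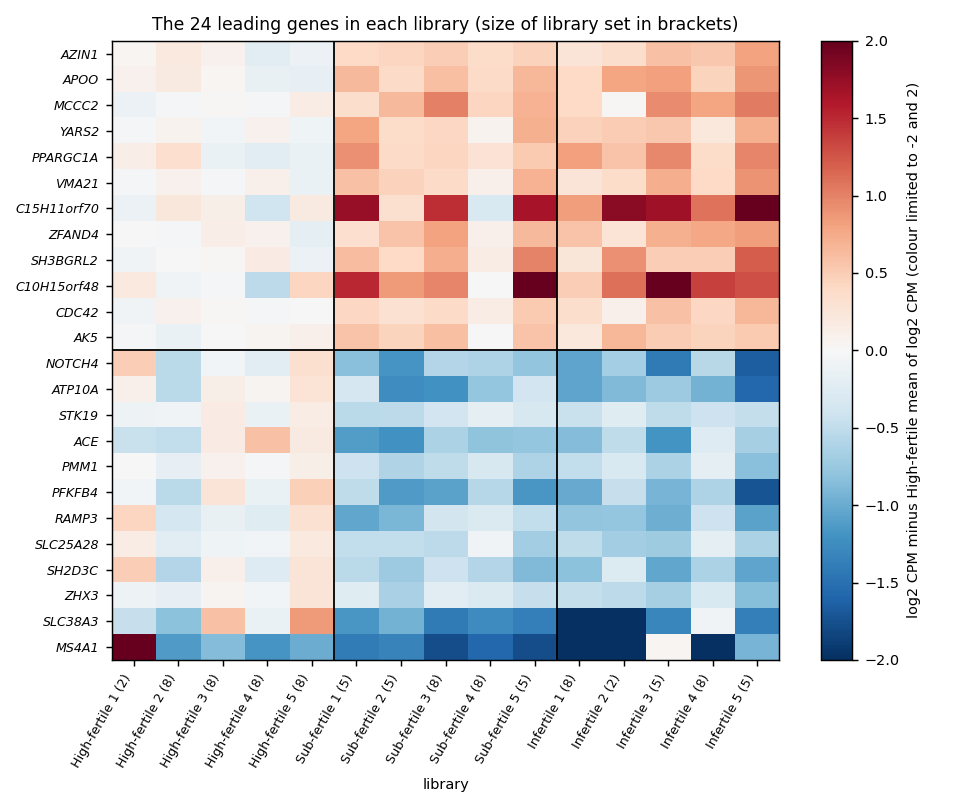
Level of the 24 leading genes in each library, as log2 CPM minus the mean log2 CPM of the 5 High-fertile libraries, with colour limited at -2 and 2; rows are genes, columns are libraries grouped by class with the size of the library set in brackets. Most cells of both lower classes are red for the upper 12 genes and blue for the lower 12, while Sub-fertile replicate 4 is close to the High-fertile mean for several of the upper genes and MS4A1 is high in High-fertile replicate 1 alone.

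AZIN1 encodes antizyme inhibitor 1, which frees ornithine decarboxylase from antizyme and so favours polyamine synthesis. Its level, in CPM after TMM scaling of the libraries as in all later values unless stated, was 191, 211, 197, 160 and 171 in the High-fertile libraries, 244, 250, 261, 239 and 254 in the Sub-fertile and 222, 237, 278, 270 and 324 in the Infertile. The lowest lower-class library, at 222, lay above the highest High-fertile library, at 211. The log2 fold change was 0.47 ± 0.10 (SE), or 0.42 for Sub-fertile and 0.52 for Infertile, and it was 0.40 with the library set as a covariate. ODC1, ornithine decarboxylase itself, was also shared, at a median of 82.2 CPM in the lower classes and 63.0 in High-fertile (log2 fold change 0.39 ± 0.11). Its 2 arms overlapped, since Sub-fertile replicate 1 was at 63.2 CPM. Of the 19 polyamine genes tested, 2 were higher and 2 lower at an unadjusted p under 0.05, where 9.84% and 8.25% of all genes were. The median log2 fold change of the 19 was 0.00, so AZIN1 and ODC1 were not matched by the list as a whole.

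APOO, a component of the complex that shapes the cristae of the inner mitochondrial membrane, was at 7.30, 7.76, 7.02, 6.19 and 6.14 CPM in High-fertile. It was at 8.93 to 10.9 CPM in Sub-fertile and 8.99 to 12.6 in Infertile libraries, with no overlap and a log2 fold change of 0.61 ± 0.13. PPARGC1A, a coactivator that drives the formation of mitochondria, was at 14.2 to 20.6 CPM in High-fertile and 19.9 to 32.3 in the lower classes (0.64 ± 0.15). Of the 10 lower-class libraries only Sub-fertile replicate 4, at 19.9, lay below the highest High-fertile library, at 20.6.

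MCCC2, a subunit of an enzyme of leucine breakdown, was at 63.0 to 75.8 CPM in High-fertile and 69.3 to 140 in the lower classes, with a log2 fold change of 0.66 ± 0.15. Infertile replicate 2 alone, at 69.3, lay within the High-fertile range. YARS2, the mitochondrial tyrosyl-tRNA synthetase, was at 33.2 to 37.4 CPM in High-fertile and 37.1 to 60.6 in the lower classes (0.49 ± 0.11). It also differed between the sets of 5 and 8 libraries (adjusted p = 0.0317 by edgeR's quasi-likelihood test), and its log2 fold change was 0.34 with the set as a covariate. C10H15orf48, a small open reading frame (human C15orf48), had medians of 6.68 and 15.7 CPM and a log2 fold change of 1.29 ± 0.32, and was likewise set-dependent (adjusted p = 0.0432, 0.83 with the covariate).

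The subunits of the respiratory chain, in the inner membrane of mitochondria, had no common direction over the list as a whole. Of 44 nuclear-encoded oxidative phosphorylation genes tested, 23 were higher and 21 lower. The log2 fold changes of the list had a median of 0.01. At an unadjusted p under 0.05 there were 9 higher members and 1 lower, where 9.84% of all genes were higher and 8.25% lower. The members at that level thus lay mostly on the higher side. Shared and higher were 3 of the 44, where 2.9% of all genes were. They were NDUFB5 and NDUFS1 of complex I and ATP5J of the ATP synthase, with log2 fold changes of 0.42, 0.32 and 0.31. These were 0.24, 0.19 and 0.17 with the library set as a covariate, and within the set of 8 NDUFB5 and ATP5J no longer passed that level (unadjusted p = 0.0682 and unadjusted p = 0.0586 by the same model). ATP5J did not overlap between the arms, at 47.4 to 51.6 CPM in High-fertile and 51.7 to 75.7 in the lower classes, a gap smaller than the spread within either arm. ATP5D, another synthase subunit, was lower (-0.43).

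VMA21, which assembles the proton pump that acidifies lysosomes and secretory vesicles, was at 88.4, 95.5, 87.9, 96.4 and 82.4 CPM in High-fertile. In the lower classes it ran from 96.5 in Sub-fertile replicate 4 to 168 in Infertile replicate 5. Sub-fertile replicate 4 and High-fertile replicate 4 were nearly equal, so the arms barely failed to overlap, and the log2 fold change was 0.50 ± 0.12. It was higher in the set of 5 than in the set of 8 libraries (adjusted p = 0.00496 by edgeR's quasi-likelihood test), and its value was 0.30 with the set as a covariate. CDC42, a small GTPase of the actin cytoskeleton and of cell polarity, was at 266 to 294 CPM in High-fertile and 298 to 441 in the lower classes, again with no overlap (0.40 ± 0.10).

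AK5, an adenylate kinase, was at 11.1 to 13.1 CPM in High-fertile and 12.2 to 19.2 in the lower classes (0.46 ± 0.12), where Sub-fertile replicate 4 alone lay in the High-fertile range. ZFAND4, a zinc finger gene, was at 8.28 to 10.3 and 10.1 to 16.7 CPM (0.57 ± 0.14). SH3BGRL2, a thioredoxin-like SH3-binding protein, was at 98.6 to 120 and 119 to 247 CPM (0.65 ± 0.16, and 0.39 within the set of 8). In these genes, too, the lower-class library that reached into the High-fertile range was Sub-fertile replicate 4.

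**Figure D2:**
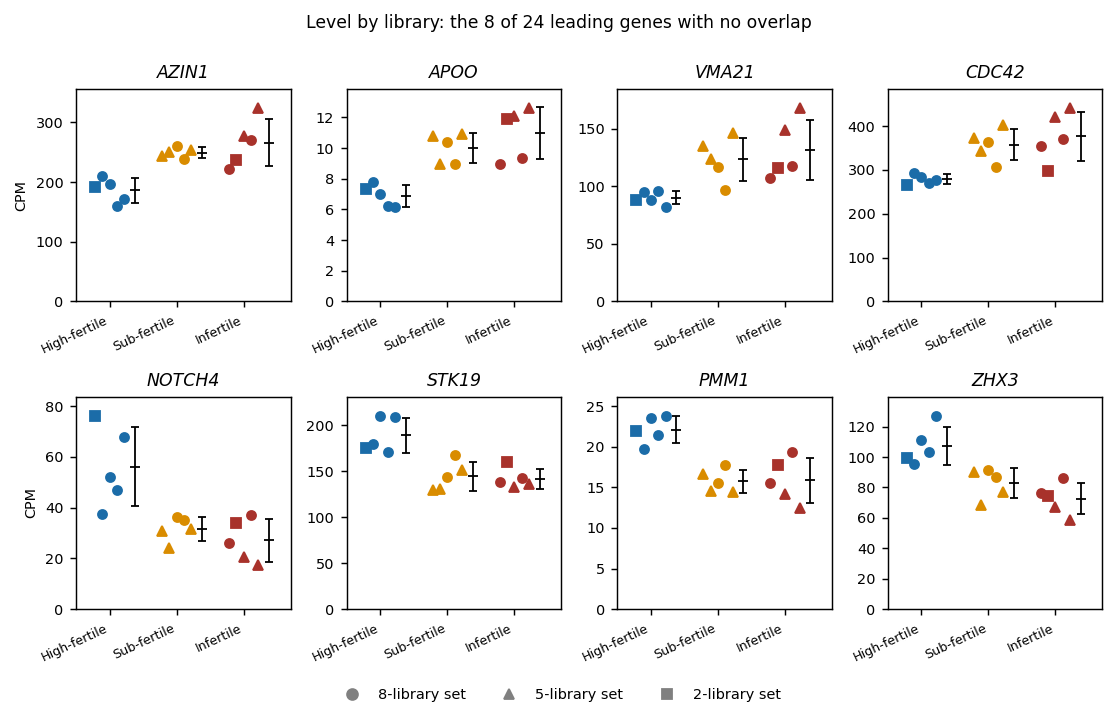
CPM by library for the 8 leading genes with no overlap, with a point for each heifer, marker shape for the library set and a bar for the mean ± SD of each class (n = 5); every vertical axis starts at 0. For AZIN1, APOO, VMA21 and CDC42 all lower-class points lie above the High-fertile points, and for NOTCH4, STK19, PMM1 and ZHX3 all lie below.

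Of 23 tested genes of the ciliated epithelium list, which holds genes of motile cilia, 21 had a higher mean in both lower classes. C15H11orf70, whose human counterpart encodes a cilia-associated protein, was at 5.02, 6.35, 5.90, 4.12 and 6.14 CPM in High-fertile. It was at 18.1, 6.81, 15.1, 4.38 and 17.1 in Sub-fertile and 9.76, 18.9, 17.7, 11.6 and 22.2 in Infertile libraries. Sub-fertile replicate 4 was low and Sub-fertile replicate 2 just above the High-fertile range, while the other 8 lay well above it (log2 fold change 1.36 ± 0.32, and 0.85 within the set of 8). All 23 genes of the list had a higher mean in the pooled lower arm, where 53.3% of all genes did, and 12 were higher at an unadjusted p under 0.05, where 9.84% of all genes were. Their median log2 fold change was 0.83, or 0.68 for Sub-fertile and 1.01 for Infertile, against 0.03 over all genes. With the library set as a covariate it was 0.72, and with any single library left out it lay between 0.74 and 0.96. In a bulk biopsy a larger share of ciliated cells and more RNA of these genes per cell cannot be told apart.

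The 4 shared members of that list were CCDC39 and SPAG17, which build the axoneme's ruler and central pair, and the axonemal dynein heavy chains DNAH5 and DNAH11. Over all genes, 2.9% were shared and higher. CCDC39 was at 11.1 to 20.0 CPM in High-fertile. In Sub-fertile it was at 47.7, 18.4, 45.8, 12.6 and 40.0, and in Infertile at 16.0, 27.5, 53.9, 36.3 and 87.1 CPM (log2 fold change 1.19 ± 0.39). Sub-fertile replicates 2 and 4 and Infertile replicate 1 therefore lay within the High-fertile range and the other 7 libraries above it. DNAH5 showed the same division, at 49.2 to 79.2 CPM in High-fertile, 48.3 to 70.2 in those 3 libraries and 108 to 204 in the other 7. With the library set as a covariate none of the 4 stayed at an unadjusted p under 0.05. The log2 fold changes were then 0.72 for CCDC39 (unadjusted p = 0.096), 0.68 for DNAH5 (unadjusted p = 0.0852), 0.92 for SPAG17 (unadjusted p = 0.0573) and 0.52 for DNAH11 (unadjusted p = 0.125), by the same model. The 3 libraries with low cilia genes came from both lower classes and from the sets of 5 and 8. Of the general epithelial list, 13 of 20 genes were higher, with a median of 0.20. At an unadjusted p under 0.05 there were 0, where 18.1% of all genes were.

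Of the 12 leading lower genes, NOTCH4 and ACE were members of the endothelial list. NOTCH4, a Notch receptor of endothelial cells, was at 76.1, 37.5, 52.2, 47.0 and 67.9 CPM in High-fertile. It was at 30.6, 24, 36.4, 35.3 and 31.5 in Sub-fertile and 26.2, 34.0, 20.5, 37.2 and 17.3 in Infertile libraries. The highest lower-class value, 37.2 in Infertile replicate 4, lay just under the lowest High-fertile value, 37.5 in replicate 2. The log2 fold change was -0.94 ± 0.19, with -0.83 for Sub-fertile and -1.05 for Infertile, and it was -0.71 with the library set as a covariate and -0.61 within the set of 8.

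ACE, the angiotensin-converting enzyme of vessel walls, was at 25.3 to 53.1 CPM in High-fertile and 15.4 to 29.8 in the lower classes (-0.83 ± 0.19). RAMP3, a partner of the receptors for adrenomedullin, was at 37.0 to 63.7 and 22.5 to 38.5 CPM (-0.72 ± 0.16), and only Sub-fertile replicate 4 reached the High-fertile range. Within the set of 8 the RAMP3 value was -0.38. SH2D3C, a signalling adaptor, was at 13.9 to 29.3 and 10.1 to 17.3 CPM (-0.73 ± 0.17). RAMP3 and SH2D3C are outside the endothelial list. The collagen COL18A1 of basement membranes, which was not among the 12 and was named after its values were seen, did not overlap, at 638 to 1200 CPM in High-fertile and 155 to 600 in the lower classes. Its log2 fold change of -1.16 ± 0.31 was -0.65 with the set as a covariate, and it also differed between the sets of 5 and 8 libraries (adjusted p = 0.000177 by edgeR's quasi-likelihood test).

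Over the 28 endothelial genes tested, 27 were lower and 1 higher, where 53.3% of all genes were higher. At an unadjusted p under 0.05 there were 9 lower members, where 8.25% of all genes were lower, and the median log2 fold change was -0.36. Shared and lower were 5 of the 28, where 2.01% of all genes were. They were NOTCH4, ACE, the BMP receptor ACVRL1, its co-receptor ENG and the receptor kinase TIE1. The median was -0.48 for Sub-fertile and -0.33 for Infertile, and with the library set as a covariate it was -0.16. The summed level of the list was 1822 to 3143 CPM in High-fertile and 1480 to 2353 in the lower classes, with overlapping ranges and medians of 2253 and 1741 CPM. PECAM1, a defining endothelial marker, was at 68.2 to 114 and 70.2 to 109 CPM on unscaled library totals, with no separation. The endothelial markers CDH5 and VWF had lower means, with log2 fold changes of -0.42 and -0.57. On unscaled totals CDH5 was at 60.1 to 113 and 41.9 to 73.6 CPM, and VWF at 244 to 506 and 144 to 334, so their ranges overlapped.

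Complement genes are part of innate immunity. C4A, a component of the classical pathway, was at 114, 90.2, 167, 123 and 130 CPM in High-fertile, at 28.5, 42.4, 76.6, 69.0 and 71.8 in Sub-fertile and at 48.8, 10.6, 42.7, 86.9 and 39.6 in Infertile libraries. No lower-class library reached the lowest High-fertile value, and the log2 fold change was -1.27 ± 0.33, with -1.31 under the library set as a covariate. The table also holds an entry described as C4-A-like, LOC781663, so reads may have been divided between near copies and the value is uncertain. SERPING1, the inhibitor of the C1 complex, had medians of 262 CPM in High-fertile and 158 in the lower classes (-0.73 ± 0.21), and C3, the central component, was at 77.9 to 157 and 41.3 to 112 CPM (-0.71 ± 0.23). Of 28 complement genes tested, 17 were lower and 11 higher. At an unadjusted p under 0.05, 8 were lower and 0 higher, where 8.25% and 9.84% of all genes were. The median of -0.41 was -0.14 with the set as a covariate. Shared and lower were 5 of the 28, where 2.01% of all genes were. Those beside C4A, SERPING1 and C3 were CFD (-0.68) and C8G (-0.66), which were -0.34 and -0.28 with the covariate. Both differed between the sets of 5 and 8 libraries (adjusted p = 0.000531 and adjusted p = 0.000592 by edgeR's quasi-likelihood test). With the covariate C8G had an unadjusted p = 0.103, and within the set of 8 C3 had an unadjusted p = 0.126, by the same model.

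Genes of B cells had the lowest median of the lists, but 1 library weighed heavily in it. Of 24 genes tested, 23 were lower. At an unadjusted p under 0.05 there were 14 lower members, where 8.25% of all genes were lower. Of the members 8 were shared, where 2.01% of all genes were shared and lower. The median log2 fold change was -1.26. This median was -0.56 when High-fertile replicate 1 was left out and -0.78 with the library set as a covariate. MS4A1, which encodes the B cell surface protein CD20, was at 20.9 CPM in High-fertile replicate 1, 0.517 to 0.643 in the other High-fertile libraries and 0.156 to 1.20 in the lower classes. Leaving that library out took its log2 fold change from -3.37 ± 0.81 to -0.35. CD79A and CD79B, which carry the signal of the B cell antigen receptor, were at 7.07 and 7.52 CPM there, and without it their values of -2.73 and -3.18 were -1.18 and -0.84.

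The remaining libraries of CD79A were at 0.436 to 0.858 CPM in 4 High-fertile libraries, 0.0983 to 0.341 in Sub-fertile and 0.204 to 0.511 in Infertile. POU2AF1, a B cell coactivator, was at 2.77, 1.07, 0.572, 0.677 and 0.936 CPM in High-fertile and 0.0455 to 0.861 in the lower classes (-2.12 ± 0.57, and -1.56 when High-fertile replicate 1 was left out). These levels rest on few reads, since 3 counts correspond to 0.0492 to 0.0783 CPM depending on the library. DESeq2 returned no adjusted p for MS4A1, CD79A and CD79B.

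**Figure D3:**
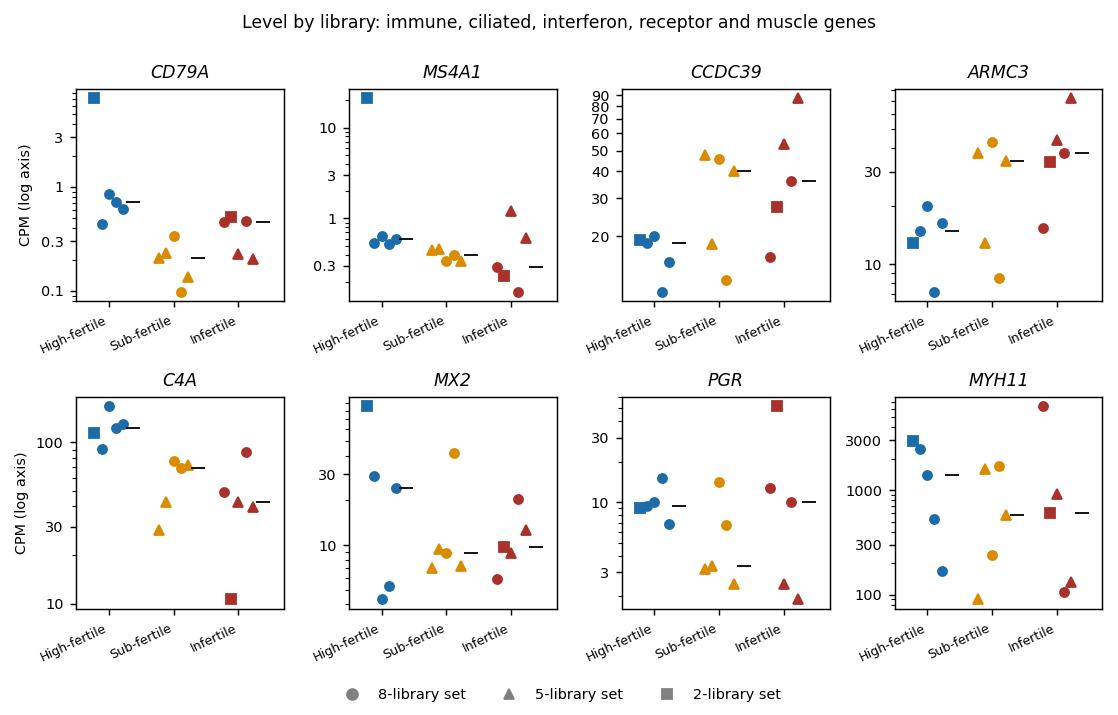
CPM by library on log axes for the B cell genes CD79A and MS4A1, the ciliated cell genes CCDC39 and ARMC3, complement C4A, the interferon-stimulated MX2, the progesterone receptor PGR and the muscle myosin MYH11; points are heifers, marker shape is the library set and the dash is the class median. High-fertile replicate 1 is the high point for MS4A1 (20.9 CPM) and CD79A (7.07 CPM), 3 lower-class libraries share the High-fertile range of CCDC39, and PGR and MYH11 vary within every class.

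Other immune lists had medians nearer to 0. Of 22 macrophage and dendritic cell genes 19 were lower, 4 at an unadjusted p under 0.05, where 8.25% of all genes were lower. Their median of -0.34 was -0.15 without High-fertile replicate 5. CSF1R, the receptor for macrophage colony-stimulating factor, was the shared member (24.5 to 38.4 CPM in High-fertile, 14.4 to 34.9 in the lower classes, -0.59 ± 0.19, and -0.39 with the covariate). Over all genes, 2.01% were shared and lower. CD74, the chaperone of MHC class II molecules, was at 461 to 692 and 289 to 499 CPM (-0.53 ± 0.15, and -0.32 with the covariate), with only Infertile replicate 2 and Sub-fertile replicate 3 inside the High-fertile range. Of 14 MHC class II genes 11 were lower, with a median of -0.27 that was 0.02 without High-fertile replicate 5.

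BOLA-DQA1 went the other way. It was at 0.0203 to 0.219 CPM in High-fertile, 15.7, 9.80, 0, 0.377 and 0.137 in Sub-fertile and 4.31, 7.83, 9.59, 0.273 and 2.12 in Infertile libraries. It was thus near 0 in 9 libraries of all 3 classes and high in 6 of the lower ones, and reads of bovine MHC genes can be divided between near-identical copies, so no fold change is given. T and NK cell genes had a median of -0.09. Of 28 tested, 2 were higher and 3 lower at an unadjusted p under 0.05, where 9.84% and 8.25% of all genes were. CD5, a T cell surface protein, was the shared member (1.95 to 2.84 and 0.649 to 2.51 CPM, -0.78 ± 0.26), where 2.01% of all genes were shared and lower.

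**Figure D4:**
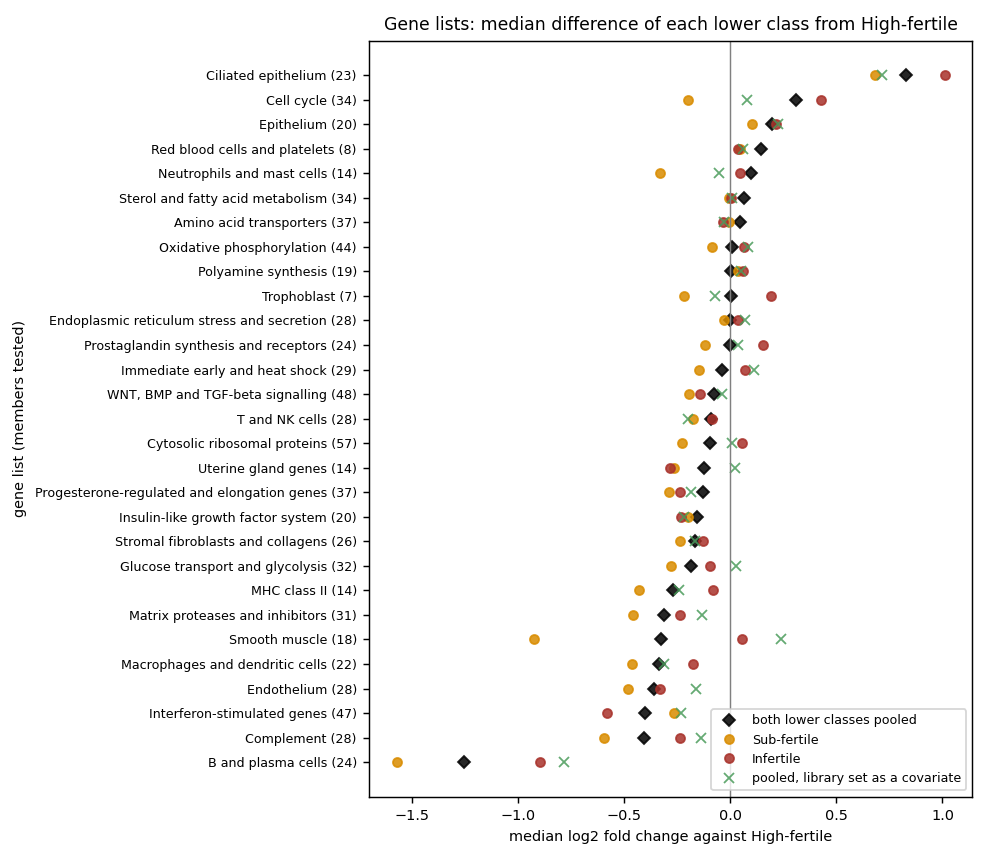
Median log2 fold change against High-fertile for each of 29 gene lists, with the number of members tested in brackets; diamonds are both lower classes pooled, circles each class and crosses the pooled value with the library set as a covariate. The ciliated list lies at 0.83 and the B and plasma cell list at -1.26, and the other medians lie between -0.41 and 0.31, with the endothelial value at -0.36 and at -0.16 with the covariate.

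Matrix genes had lower means in most cases. Of 31 genes for matrix proteases and their inhibitors, 29 were lower. At an unadjusted p under 0.05 there were 5, where 8.25% of all genes were lower, and the median was -0.31. That median was -0.15 without High-fertile replicate 5 and -0.49 without Infertile replicate 2, and it was -0.14 with the covariate. Shared and lower were 3 of the 31, where 2.01% of all genes were. They were the proteoglycan BGN, the protease ADAMTS10 and the protease inhibitor TIMP1. BGN was at 137, 114, 143, 124 and 207 CPM in High-fertile, 67.3 to 106 in Sub-fertile and 49.3 to 124 in Infertile libraries (-0.79 ± 0.20), and only Infertile replicate 2, at 124, reached into the High-fertile range. The stromal and collagen list had a median of -0.17. It was -0.32 without Infertile replicate 2, -0.088 without High-fertile replicate 5, -0.37 without the set of 2 and -0.39 within the set of 8. Its only shared member was FBLN2 (-0.73 ± 0.25), a fibulin of elastic fibres, where 2.01% of all genes were shared and lower. With the library set as a covariate FBLN2, ADAMTS10 and TIMP1 were at -0.45, -0.49 and -0.40 and no longer at an unadjusted p under 0.05 (unadjusted p = 0.0881, unadjusted p = 0.0592 and unadjusted p = 0.0542 by the same model).

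Metabolic genes gave single members and no common direction. PFKFB4, which sets the level of the activator of phosphofructokinase, was at 9.79, 7.02, 12.1, 9.27 and 14.1 CPM in High-fertile and 3.06 to 7.42 in the lower classes (-0.91 ± 0.21). LDHA, lactate dehydrogenase, was at 68.4, 49.0, 35.3, 32.7 and 35.0 CPM in High-fertile and 42.0 to 110 in the lower classes (0.78 ± 0.25), and SLC2A12, a glucose transporter, was at 10.2 to 13.1 and 10.9 to 26.6 CPM (0.70 ± 0.19). Of 32 glucose transport and glycolysis genes 10 were higher and 22 lower. At an unadjusted p under 0.05 there were 2 in each direction, where 9.84% of all genes were higher and 8.25% lower. The median was -0.19. That median was 0.03 with the library set as a covariate and 0.0087 within the set of 8.

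SLC38A3, a glutamine transporter, was at 4.11, 3.21, 8.51, 5.15 and 10.2 CPM in High-fertile and 1.38 to 5.39 in the lower classes. Infertile replicate 4 was the only lower-class library above 2.94 CPM, and the log2 fold change was -1.33 ± 0.32. The 37 amino acid transporters had a median of 0.04. At an unadjusted p under 0.05, 1 was higher and 2 lower, where 9.84% and 8.25% of all genes were. PMM1, a phosphomannomutase that supplies mannose for glycosylation, did not overlap, at 19.7 to 23.8 CPM in High-fertile and 12.4 to 19.3 in the lower classes (-0.48 ± 0.11). SLC25A28, the mitochondrial iron carrier, was at 69.9 to 92.4 and 49.2 to 76.6 CPM (-0.49 ± 0.12, and -0.29 within the set of 8).

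ATP10A, a phospholipid-transporting ATPase of the cell surface, was at 40.4, 25.8, 40.9, 39.1 and 45.5 CPM in High-fertile and 12.7 to 29.8 in the lower classes. High-fertile replicate 2 was low, and Sub-fertile replicates 1 and 5 were the only lower-class libraries above it. Its log2 fold change of -0.89 ± 0.18 was -0.99 with the library set as a covariate. STK19 was at 175, 180, 210, 171 and 209 CPM in High-fertile and 129 to 167 in the lower classes, and ZHX3, a transcriptional repressor, at 95.4 to 127 and 58.8 to 91.6 CPM. Neither overlapped, and their log2 fold changes were -0.40 ± 0.085 and -0.46 ± 0.11. FADS1, a fatty acid desaturase, did not overlap in the other direction, at 44.6 to 65.0 CPM in High-fertile and 66.5 to 124 in the lower classes (0.54 ± 0.18).

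**Figure D5:**
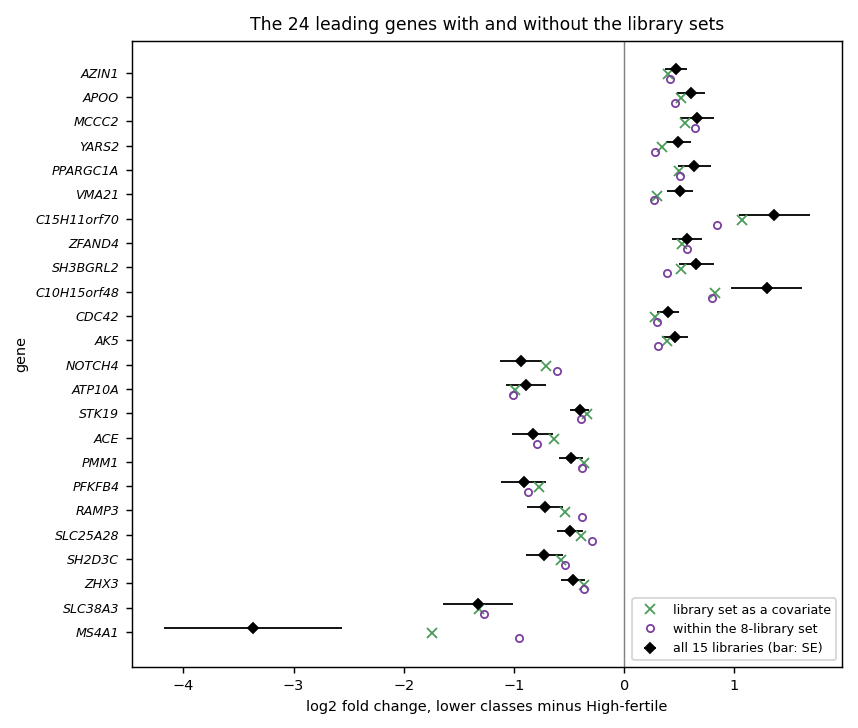
Log2 fold change of the 24 leading genes, lower classes minus High-fertile, in all 15 libraries (diamonds, bar for the SE), with the library set as a covariate (crosses) and within the set of 8 libraries (open circles). All 3 values of each gene have one sign, and MS4A1 has the widest gap between its estimates (-3.37, -1.75 and -0.95).

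Interferon-stimulated genes are those by which the response to the conceptus is usually followed. Of 47 tested, 44 had a lower mean in the pooled lower arm, 6 were lower at an unadjusted p under 0.05, where 8.25% of all genes were, and 0 were shared, where 2.01% of all genes were shared and lower. The median of -0.40 was -0.03 within the set of 8 libraries. It was -0.23 when High-fertile replicate 5 was left out and -0.62 when Sub-fertile replicate 4 was. ISG15, an interferon-induced modifier related to ubiquitin, was at 97.0, 47.8, 4.13, 10.2 and 65.1 CPM in High-fertile, 4.88, 9.08, 13.5, 93.2 and 7.04 in Sub-fertile and 10.5, 6.02, 5.57, 24.8 and 15.9 in Infertile libraries. High-fertile replicates 1, 2 and 5 and Sub-fertile replicate 4 were the highest, and the log2 fold change was -1.23 ± 0.74 (unadjusted p = 0.116 by the same model). MX2, another interferon-induced gene, ran from 4.32 to 85.9 CPM in High-fertile and 5.93 to 42.0 in the lower classes (-1.17 ± 0.60), and the value was -0.26 without High-fertile replicate 1.

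Hormone receptors varied more within classes than between the arms. PGR, an entry described as progesterone receptor-like, was at 6.92 to 15.1 CPM in High-fertile and 1.89 to 51.5 in the lower classes (0.10 ± 0.69, and -0.67 without Infertile replicate 2). It was lower in the set of 5 than in the set of 8 libraries, with a log2 difference of -2.26 (adjusted p = 0.00058 by edgeR's quasi-likelihood test), and the 5 libraries of that set, at 1.89 to 3.33 CPM, were the lowest of the 15. ESR1, estrogen receptor alpha, had the same division between the sets (-1.67, adjusted p = 3.77e-05) and a pooled value of -0.32 ± 0.38. OXTR, the oxytocin receptor, ran from 1.43 to 176 CPM in the lower classes and 5.07 to 39.6 in High-fertile (0.76 ± 1.04). FOXA2, EPCAM, IGFBP1 and DKK1 had log2 fold changes of 0.03, 0.19, -0.04 and -0.85, with unadjusted p values of 0.913, 0.407, 0.958 and 0.186 by the same model.

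The 18 smooth muscle genes had a median of -0.33 in the pooled fit, -0.93 for Sub-fertile and 0.06 for Infertile, and 0.24 with the library set as a covariate. Their summed level was 1956 to 16480 CPM in High-fertile and 1416 to 32910 in the lower classes, highest in Infertile replicate 1. The median was -1.23 without Infertile replicate 1, 0.05 without High-fertile replicate 1 and 0.72 within the set of 8. The part of muscle in the other results was not tested.

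The pooled lower arm was also examined for a difference between its 2 classes, a contrast without High-fertile libraries. Of 19962 genes, 0 (0%) passed an adjusted p of 0.05 in Infertile against Sub-fertile by edgeR's quasi-likelihood test, with a smallest adjusted p of 0.998, and 525 (2.63%) were at an unadjusted p under 0.05. None of the 24 leading genes was among these 525, and their log2 differences between the classes were at most 0.38 in size. They were ranked in a fit with 1 mean for both classes, which favours genes that differ little between them, so no conclusion is drawn from this. With 5 libraries a class, the absence of genes past the threshold does not show that the classes are alike. ELOVL7, a fatty acid elongase, was one of the 525. It was at 6.01 to 11.9 CPM in High-fertile, 10.5 to 15.8 in Sub-fertile and 12.9 to 33.9 in Infertile libraries (unadjusted p = 0.00937 by the same model), and with a pooled value of 0.87 ± 0.27 it was not shared.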

How the data were processed

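Stranded poly(A) libraries of 15 endometrial biopsies were prepared with a TruSeq mRNA kit, per the labels' protocols. The submitters' processing notes name the UMD3.1 build, Subread with featureCounts, FastQC and edgeR. For these, version numbers and the strand setting were not given in the sources used here. As deposited by the authors, the table holds whole-number read counts per gene, which were tested. The FPKM values that the authors deposited beside them served only to recover gene lengths. All value columns were mapped to samples by title.

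The counts were fitted with edgeR 4.0.16 (R 4.3.3): filterByExpr by class (19962 of 32671 entries kept, 4555 being at 0 in every library and 27 having names that read as dates), TMM scaling, a robust quasi-likelihood fit with 1 mean for each arm (13 residual degrees of freedom), and a fit with 1 mean per class (12). Every p is two-sided, and adjusted p values are by the Benjamini-Hochberg method over all genes tested. The SE is the log2 fold change divided by the root of the F statistic. The library sets came from average-linkage clustering on 380 entries whose description holds the words pseudogene, ribosomal RNA or rRNA. The tree was cut into 3 sets, a number fixed beforehand. Alternatives were RLE, upper quartile and library-size scaling, 2 other filters, DESeq2 1.42.0, limma-voom (limma 3.58.1) with and without library weights, the likelihood ratio test, the set as a covariate, subsets of libraries and each library left out.

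Named genes were the 12 higher and 12 lower with a symbol, at least 1 CPM on average and the smallest p, the 2 members of lowest p in each of 29 lists, and a fixed set of 12 genes. Another 12 genes, the shared members of short counts and near neighbours of named genes were named after their values were seen. The comparison, lists and rules were chosen with earlier results of these data known. A total of 20727 entries matched a symbol or synonym of the reference annotation (ARS-UCD2.0), used for names and gene order only. P values measure the spread between heifers, with 1 library each, and a floor of 3 counts covers counting error only.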

Additional observations from a re-analysis of the deposited data

Results flagged for a closer look

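Levels, on a log scale, were screened by Dixon's criterion in 297 groups of 5 libraries, 1 class and 1 named gene each. Chance gives about 1 in 20 of these, and 13 had a library far from the other 4. Not flagged on this scale, though far out in CPM, were CD79B in High-fertile replicate 1 (7.52 against 0.119 to 0.476) and S100A8 in Infertile replicate 2 (26.2 against 0.586 to 2.04). High-fertile replicate 1 was high for MS4A1, at 20.9 CPM against 0.517 to 0.643, and for CD79A, at 7.07 CPM against 0.436 to 0.858. High-fertile replicate 2 was low for ATP10A (25.8 CPM against 39.1 to 45.5) and high for KLRK1, a receptor of NK cells (1.63 against 0.895 to 0.955).

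High-fertile replicate 5 was high for the basement membrane collagen COL18A1, at 1200 CPM against 638 to 753, and low for the desaturase FADS1, at 44.6 CPM against 62.4 to 65.0. High-fertile replicate 4 was low for ODC1, at 52.9 CPM against 62.4 to 66.7. In these groups the outlying library moved the High-fertile mean away from the lower classes for COL18A1, FADS1 and ODC1, and towards them for ATP10A and KLRK1.

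Sub-fertile replicate 4 was low for AK5 (12.2 CPM against 16.6 to 18.4) and high for MX2 (42.0 against 7.05 to 9.45) and the growth factor receptor IGF2R (130 against 73.0 to 86.3). Sub-fertile replicate 2 was low for the epithelial transcription factor EHF (88.4 CPM against 152 to 177), and Sub-fertile replicate 3 was high for FADS1 (124 against 66.5 to 78.7). Infertile replicate 2 had almost no DKK1, an inhibitor of WNT signalling, at 0.128 CPM against 9.02 to 29.7.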

How the results depend on the processing

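The number of genes past the adjusted threshold was 0 under every scaling and filter, the 3-class fit, the library set as a covariate and both subsets of libraries. In the main fit it was also 0 at a threshold of 0.10. The smallest adjusted p for the mean of both lower classes in the 3-class fit was 0.0779 by edgeR's quasi-likelihood test. The number past 0.05 was 124 with DESeq2, 14 with the likelihood ratio test and 7288 with weighted limma-voom, and 0 to 1 with a library left out. The 1 gene was LOC101904517 without High-fertile replicate 3 (log2 fold change 6.90, adjusted p = 0.0156 by edgeR, against 3.38 and 0.251 in all libraries). The number at an unadjusted p under 0.05 was 9265 with weighted limma-voom, 1235 with the set as a covariate, 1477 within the set of 8 and 2314 to 5119 with a library left out. Upper quartile scaling gave 2533 higher and 1343 lower genes against 1965 and 1647 with TMM, and moved the median of all genes from 0.03 to 0.07. The shared number was 282 with the covariate (171 of the 979 genes among them), 239 within the set of 8 (63 of the 979) and 491 to 1836 with a library left out. Genes without overlap numbered 903 within the set of 8, 383 without the set of 2 and 86 to 235 with a library left out, where fewer libraries make overlap rarer by construction. Infertile against Sub-fertile gave 0 genes throughout.

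Signs of single genes reversed as follows, and the cause was not tested. Within the set of 8 the log2 fold change was -0.49 for S100A8, 0.61 for SMTN, 0.66 for LMOD1, 0.23 for SLC2A1, -0.029 for RPS25, 0.074 for GP9, 0.11 for ESR1, 0.15 for ISG15, 0.029 for MX1, 0.28 for MX2, 0.49 for IGFBP1 and 0.88 for MYH11. With the covariate it was 0.10 for SMTN, 0.20 for LMOD1, -0.017 for RPS25, 0.071 for GP9, -0.49 for CDX2, 0.28 for ESR1 and 0.35 for MYH11. Without the set of 2 it was -0.053 for S100A8, -0.71 for PGR, -0.027 for FOXA2, 0.26 for IGFBP1 and 0.19 for MYH11. With a library left out it ranged from -0.0064 to 2.22 for S100A8, -0.67 to 0.30 for PGR, -0.31 to 1.26 for OXTR, -0.092 to 0.17 for FOXA2, -0.24 to 0.11 for IGFBP1 and -1.18 to 0.11 for MYH11. No paired analysis was possible because the labels give animal numbers that no 2 classes share. Depth limits genes under about 1 CPM, such as the B cell genes.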

Other observations

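Some of the shared lower genes are neighbours on the chromosome. In the order of the reference annotation, names only, the stretch from NOTCH4 to the heat shock gene HSPA1A in the MHC class III region holds 34 entries, of which 26 were tested. Of these 24 had a lower mean in the lower classes, 10 were lower and 0 higher at an unadjusted p under 0.05, where 8.25% of all genes were lower. The shared ones were 6, where 2.01% of all genes were shared and lower: NOTCH4, AGER, LOC781663, C4A, STK19 and HSPA1A. Their arms did not overlap in 3 of the 26 genes, where 0.25% of all genes were lower without overlap. The median log2 fold change of the 26 was -0.35 against 0.03 over all genes, and with the library set as a covariate it was -0.13, with 5 genes at an unadjusted p under 0.05. The ends of the stretch were chosen after these values were seen, so the counts are a description with no test. LOC781663 is described as C4-A-like, so reads may have been divided between it and C4A, and overlapping reads of adjacent genes cannot be told apart where the strand setting of the counting is not given.

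Stress and secretion genes were mixed. HSPA1A, an inducible chaperone, was at 451, 532, 253, 326 and 347 CPM in High-fertile and 165 to 364 in the lower classes (log2 fold change -0.73 ± 0.19), while HSPD1, the mitochondrial chaperone, was at 89.9 to 124 and 103 to 195 CPM (0.45 ± 0.15). HSPD1 was at 0.24 with the library set as a covariate (unadjusted p = 0.0974) and HSPA1A at -0.38 within the set of 8 (unadjusted p = 0.151), by edgeR's quasi-likelihood test. The metal-binding MT2A was at 4.99 to 16.8 CPM in High-fertile and 2.50 to 6.87 in the lower classes (-1.02 ± 0.29, and -0.52 within the set of 8). CDC45, a replication factor, was at 12.6 to 26.0 and 10.9 to 15 CPM (-0.51 ± 0.14), although 23 of 34 cell cycle genes had a higher mean. The cell cycle median of 0.31 was -0.25 without Infertile replicate 2. IGFBP2, which binds insulin-like growth factors, was at 21.9 to 148 CPM in High-fertile and 4.77 to 77.4 in the lower classes (-1.62 ± 0.55, and -0.86 within the set of 8) and was not shared.

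FCRL1, an Fc receptor-like gene of the B cell list, was at 2.03 and 3.69 CPM in High-fertile replicates 1 and 2, 0.0398 to 0.244 in the other High-fertile libraries and 0.0328 to 0.295 in the lower classes. Of the 124 genes that DESeq2 passed, 122 were shared by both lower classes, where 4.9% of all genes were. The arms did not overlap in 28 of them, where 0.421% of all genes had no overlap, and 15 had a mean under 1 CPM. DESeq2 was run on the same 15 libraries and the same comparison, so these counts are no independent check.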
